A study of Mus musculus with 20 samples.

Results

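Celastrol is a triterpenoid of the thunder god vine, given here to obese mice by injection into the peritoneum, and the comparison described is that of its earliest time, 6 h. It sets 4 hypothalamus arrays of celastrol-treated mice against 3 of vehicle-treated mice, which are 7 of the 20 arrays of the study. Members were chosen by the treatment and time in the array titles, and no measured value entered the choice. All mice were male C57BL/6J. From the age of 4 weeks they ate a 45% fat diet, which lasted 16 weeks, so both groups share the obesity and neither is lean. The celastrol group received 250 µg/kg celastrol dissolved in dimethyl sulfoxide (DMSO), in an injected volume of 100 µl, and the vehicle group received DMSO alone, with 25 µl of DMSO per day stated for both. Celastrol and vehicle were also given for 1 day (4 celastrol and 3 vehicle arrays) and for 4 days (3 and 3). The labels state the celastrol dose beside 6 h alone, so dose and time cannot be told apart where the times are compared. These later arrays have their own vehicle groups, and serve here to estimate the spread and to compare the times. The arrays of a group are called biological replicates in the labels, with no statement of whether an array holds 1 animal or a pool, so p-values measure the spread between these arrays.

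Expression was read on Affymetrix whole-transcript mouse arrays, in which each gene is measured by a set of short probes and given as a log2 intensity. A difference of 1 on that scale is a doubling, and every difference below is celastrol minus vehicle. Because intensity depends on the probes, levels are compared between arrays and not between genes. In bulk tissue, fewer cells of a type and less RNA per cell cannot be told apart.

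The hypothalamus sets food intake and energy use. Leptin, a hormone of fat tissue, acts there through its receptor and the kinase JAK2 on neurons that make the satiety precursor POMC or the hunger peptides NPY and AgRP, and in obesity these neurons respond to it poorly. Celastrol is known as a compound that lowers food intake in obese mice. In cultured cells it is known to activate HSF1, the transcription factor of the heat shock response, which binds inverted repeats of the pentamer nGAAn in front of chaperone genes, and to act on the proteasome, NRF2 and NF-kB. These pathways set some of the gene groups described, and all groups were chosen with earlier results of these data known.

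The letters that HSF1 binds are shown first, because chaperone genes that carry them are the textbook targets of this factor. The core searched was GAANNTTC, which reads the same on both strands. Among RefSeq promoters (assembly GRCm38.p6, 250 bases before to 50 after a gene's start) it occurs in 2582 of 32851, or 7.86%, and in 2442 of 27025 genes with such a promoter, or 9.04%. Of 21 heat shock chaperone genes listed, 17 have an entry there and 11 of these hold the core; the 17 have 23 promoters, of which 12 hold it. Stretches before the start sites of 4 of these follow, 5′ to 3′ on the gene's strand with the core in capitals. These genes were chosen after their values were seen, for being chaperones with the core in front of the start.
Hspa1a: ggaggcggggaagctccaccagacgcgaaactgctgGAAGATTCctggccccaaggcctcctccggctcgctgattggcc
Hspb1: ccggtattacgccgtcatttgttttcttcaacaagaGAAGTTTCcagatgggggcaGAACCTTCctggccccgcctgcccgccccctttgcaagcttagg
Dnaja1: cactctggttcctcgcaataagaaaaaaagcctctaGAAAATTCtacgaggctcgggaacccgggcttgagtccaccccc
Hspe1: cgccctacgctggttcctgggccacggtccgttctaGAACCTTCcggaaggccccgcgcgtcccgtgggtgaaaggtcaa
The stretch of Hspa1a lies at chr17:34972217-34972296 on the minus strand. That of Hspb1 lies at chr5:135887766-135887865, that of Dnaja1 at chr4:40722308-40722387 and that of Hspe1 at chr1:55088028-55088107, all on the plus strand. A match is a description of the letters, and shows neither that HSF1 binds there nor that it does not.

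Before the comparison, the arrays themselves were examined. Array medians lay between 8.60 and 8.65, and the arrays were all distinct. After each group's mean was removed, the leading component held 25.0% of the remaining variance. Vehicle replicate 3 of 6 h scored 11.4 on it and vehicle replicate 3 of 1 day 9.61, while every other array lay between -6.13 and 5.32. The mean of 22 markers of hypothalamic nuclei was 9.72 to 9.79 in the vehicle and 9.71 to 9.79 in the celastrol arrays of 6 h. Pmch, the melanin-concentrating hormone of the lateral hypothalamus, read between 12.64 and 12.98. A list mean cannot by itself establish the tissue, since that of striatum markers was 10.15 to 10.22 in the same arrays. Markers of the thalamus, which borders the hypothalamus, were also present. Their mean over 12 genes was 9.16, 8.95 and 9.43 in the 3 vehicle arrays of 6 h, 8.81 to 9.02 in the 4 celastrol arrays of 6 h, 8.75 to 8.90 in the later vehicle arrays and 8.75 to 8.91 in the later celastrol arrays. Vehicle replicate 3 of 6 h, the highest on the component, thus also had the highest thalamus marker mean. Vehicle replicate 3 of 1 day, the next highest on the component, had the lowest thalamus marker mean of all arrays, 8.75. These arrays had the highest SDs of log2 intensity, 2.065 at 6 h and 2.057 at 1 day, beside at most 2.047 in any other array. What the component reflects was not tested. Results that rest on vehicle replicate 3 of 6 h are given with and without it.

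**Figure D1:**
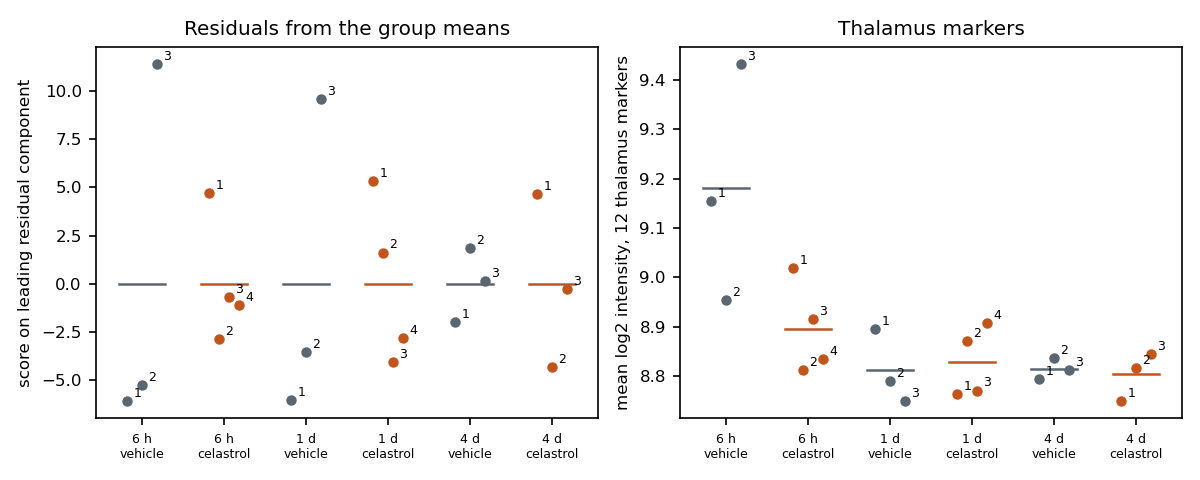
Left, each of the 20 arrays' score on the leading component of the residuals from the group means; right, each array's mean log2 intensity over 12 thalamus markers. Points are arrays with their replicate numbers and lines are group means. Vehicle replicate 3 at 6 h sits at 11.4 on the left and at 9.43 on the right, the highest of all arrays in both. Vehicle replicate 3 at 1 day sits at 9.61 on the left and at 8.75 on the right, the lowest of all arrays there.

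At 6 h no gene passed the test. The difference between celastrol and vehicle was fitted with limma over all 20 arrays for 14129 genes, and 0 of them (0%) had a Benjamini-Hochberg adjusted p under 0.05; the smallest was 0.431. At an unadjusted p under 0.05 there were 1067 genes, of which 353 (2.50%) were higher and 714 (5.05%) lower in the celastrol arrays. The 4 celastrol and 3 vehicle values did not overlap for 897 genes (6.35%), 270 higher and 627 lower. The same fit called 60 genes (0.425%) at 1 day and 9 at 4 days. The SD of the differences over genes was 0.0821 at 6 h, 0.0960 at 1 day and 0.0882 at 4 days.

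The differences leaned to lower values. Only 5892 genes (41.7%) had a difference above 0, and the median was -0.0147. Of the genes at an unadjusted p under 0.05, 66.9% were lower. Without vehicle replicate 3 both directions shrank, to 183 higher and 298 lower (62.0% lower), again with 0 called. The lower share was 60.6% without celastrol replicate 1 and 55.6% when only the 7 arrays of 6 h were fitted (351 higher, 440 lower). After the arrays were quantile normalized once more the split was 419 higher to 493 lower, or 54.1% lower. Other settings raised the share, to 71.5% without celastrol replicate 3 and 71.7% with an intensity trend and robust prior. It also varied with the cut on intensity. The share was 56.2% with no dim filter and 85.4% among genes at or above the 50th percentile (119 higher, 694 lower). Without vehicle replicate 2, the vehicle array of 6 h with the lowest thalamus mean, 6 genes were called, all lower with celastrol. They are Rora, Prkcd, Slc17a7, Ptpn3, Kitl and Rasgrp1, and the part of thalamus tissue in them was not tested apart from the values given below.

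The intervals bear on how large a change could have been missed. Over genes, the standard error had a median of 0.0605, and the 95% interval a median half-width of 0.127 on the log2 scale. For 14084 genes (99.7%) the whole interval lay within a 1.5-fold change in either direction, and for 45 it reached beyond. These intervals are per gene and not adjusted for the number of genes. They also rest on a spread shared by all 6 groups, and can be too narrow or too wide where groups differ in spread. For Prkcd the SD was 0.66 in the vehicle arrays of 6 h, and 0.09 and 0.02 in those of 1 day and 4 days. The difference itself was beyond 1.5-fold for 3 genes, named here for that reason and so after their values were seen. Prkcd and Ptpn3 were lower by -0.79 and -0.59. Slc6a3, the dopamine transporter, was higher by 0.81 with an unadjusted p of 0.0984 and an interval from -0.17 to 1.79.

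**Figure D2:**
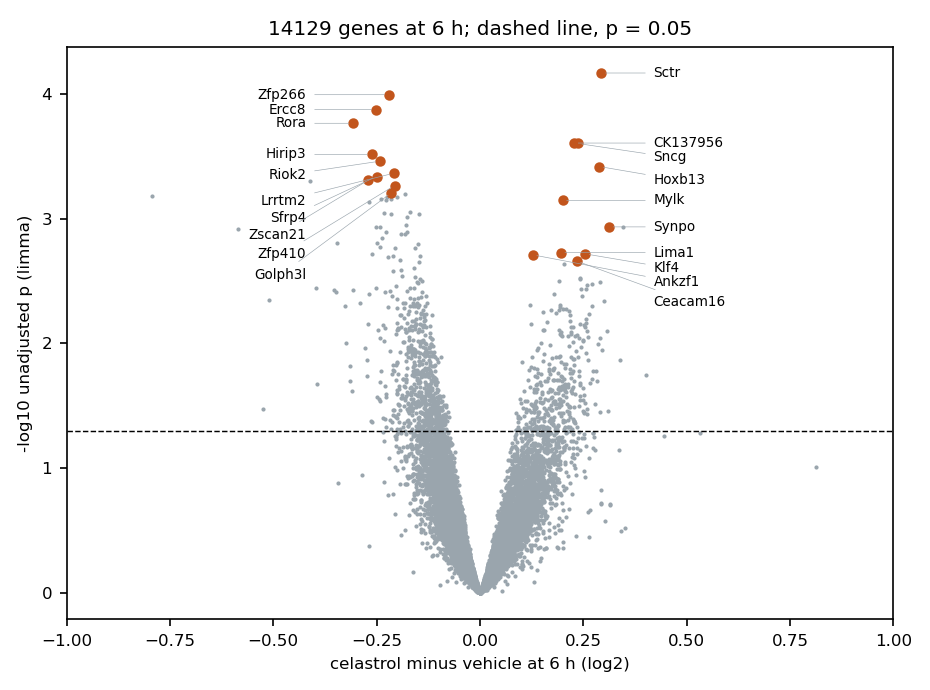
Each point is a tested gene, with the log2 difference celastrol minus vehicle at 6 h on the horizontal axis and minus log10 of the unadjusted limma p on the vertical axis, with a dashed line at 0.05. Labelled points are the 10 higher and the 10 lower genes with the smallest p, and none of them passed adjustment.

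The smallest p among higher genes belonged to Sctr, the receptor of the gut and brain peptide secretin. It read 7.30, 7.12 and 7.10 in the vehicle arrays and 7.48, 7.47, 7.50 and 7.43 in the celastrol arrays. The difference was 0.29 ± 0.058 (SE), with an unadjusted p of 6.81e-05 and an adjusted p of 0.431. All 4 celastrol values lay above all 3 vehicle values, though all lay near the cut below which genes were left out as dim (7.04), and at 1 day its difference was -0.06. Sncg, which encodes the neuronal protein gamma-synuclein, read 10.35, 10.45 and 10.30 with vehicle and 10.58, 10.65, 10.48 and 10.69 with celastrol. Its difference was 0.24 ± 0.053 (unadjusted p = 0.00025), without overlap, and -0.01 at 1 day. Klf4, a zinc finger transcription factor, read 7.77, 7.95 and 7.92 with vehicle and 8.13, 8.09, 8.28 and 8.05 with celastrol, a difference of 0.25 ± 0.071 (adjusted p = 0.539). Again the groups did not overlap. The vehicle mean of Sctr was 7.18 at 6 h, below those of 1 day and 4 days, 7.45 and 7.33. That of Sncg was 10.36 at 6 h, below 10.66 and 10.69. For Klf4 the vehicle means were alike, 7.88 at 6 h and 7.87 and 7.89 later.

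Of the other higher genes, Mylk, Synpo and Lima1 encode proteins that act on or bind actin filaments or myosin. Mylk, the myosin light chain kinase of smooth muscle, read 7.96, 7.81 and 7.88 with vehicle and 8.06, 8.07, 8.05 and 8.16 with celastrol, a difference of 0.20 ± 0.050. Synpo, the actin-associated synaptopodin, differed by 0.31 ± 0.082, and Lima1, an actin filament binder, by 0.20 ± 0.054. Their adjusted p-values were 0.431, 0.482 and 0.539. Ankzf1, of ribosome-associated protein quality control, differed by 0.13. The remaining 3 of the 10 were Hoxb13, a homeobox gene of the tail region, at 0.29, Ceacam16, an inner ear protein, at 0.23, and the transcript CK137956 at 0.23. Hoxb13 and Ceacam16 read at most 7.27 in any array of 6 h, also close to that cut, and Synpo read 7.22, 7.11 and 6.86 with vehicle, the lowest value being below it.

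Among lower genes, the smallest p was that of Zfp266, a zinc finger protein. It read 10.64, 10.66 and 10.69 with vehicle and 10.40, 10.45, 10.50 and 10.43 with celastrol, a difference of -0.22 ± 0.045 with an unadjusted p of 0.000102 and an adjusted p of 0.431. The vehicle values were tight and all above the celastrol values. Their mean, 10.67, was also above the vehicle means of 1 day and 4 days, 10.46 and 10.42. Ercc8, a subunit of the transcription-coupled DNA repair machinery, read 7.80, 7.65 and 7.67 with vehicle and 7.50, 7.40, 7.51 and 7.41 with celastrol, differing by -0.25 ± 0.053. These groups did not overlap either, and the difference was 0.08 at 1 day and 0.07 at 4 days. The vehicle means of Ercc8 were 7.71 at 6 h, 7.65 at 1 day and 7.69 at 4 days. A further pair of zinc finger genes stood among the 10, Zscan21 at -0.27 ± 0.064 and Zfp410 at -0.21 ± 0.050. Riok2, a kinase of small ribosomal subunit maturation, differed by -0.24 ± 0.056. Hirip3, a partner of the histone chaperone HIRA, differed by -0.26 ± 0.059. Sfrp4, a secreted Wnt inhibitor, differed by -0.25 ± 0.059 and Golph3l, a Golgi protein, by -0.21 ± 0.052. Lrrtm2, a synaptic adhesion protein of excitatory neurons, differed by -0.21 ± 0.049, with 1 celastrol value as high as the lowest vehicle value at this rounding (12.09). Its vehicle mean of 6 h, 12.19, was above those of 1 day and 4 days, 11.98 and 12.04. For these 7 genes the adjusted p was 0.431.

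The tenth lower gene, Rora, is a nuclear receptor of the clock that is also strongly expressed in thalamus. It read 10.52, 10.20 and 10.56 in the vehicle arrays against 10.20, 10.10, 10.08 and 10.09 in the celastrol arrays, a difference of -0.31 ± 0.066 (unadjusted p = 0.000172, adjusted p = 0.431). Its vehicle values stood in the same order as the thalamus marker means of those arrays. Rora and Prkcd are themselves members of that list, so this order is only a description. Without vehicle replicate 2 Rora was called, at -0.42 with an adjusted p of 0.00232. Prkcd, a protein kinase C of thalamic relay neurons, read 10.03, 9.29 and 10.60 with vehicle and 9.60, 9.10, 9.03 and 8.98 with celastrol. Its difference was -0.79 ± 0.195, its groups overlapped, and without vehicle replicate 2 it was -1.13 with an adjusted p of 0.00356. The vehicle arrays themselves span more than the group difference.

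As a list, 12 thalamus markers were measured, 10 of them lower, and 9 at an unadjusted p under 0.05 against the 5.05% of all genes; none passed adjustment. Their median was -0.291, beside -0.0147 over all genes, and 3 of the 12 did not overlap, beside 6.35% of all genes. Ramp3, a receptor-modifying protein, differed by -0.51, Plekhg1 by -0.40, Synpo2 by -0.35 and Tcf7l2, a transcription factor of the Wnt pathway that marks thalamus, by -0.31. Without vehicle replicate 3 the list's median was -0.150 with 4 members at an unadjusted p under 0.05, beside 481 of all 14129 genes. At 1 day the median was 0.00467 and at 4 days 0.0058. Slc17a7, a vesicular glutamate transporter, is listed here with the cortex and hippocampus markers and not with those of thalamus. It read 8.24, 7.51 and 8.49 with vehicle against 7.69, 7.73, 7.65 and 7.69 with celastrol. Its vehicle values lie on both sides of the celastrol values. With the thalamus marker mean as a covariate, 96 genes were higher and 190 lower at an unadjusted p under 0.05 over the whole table, with 0 called.

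**Figure D3:**
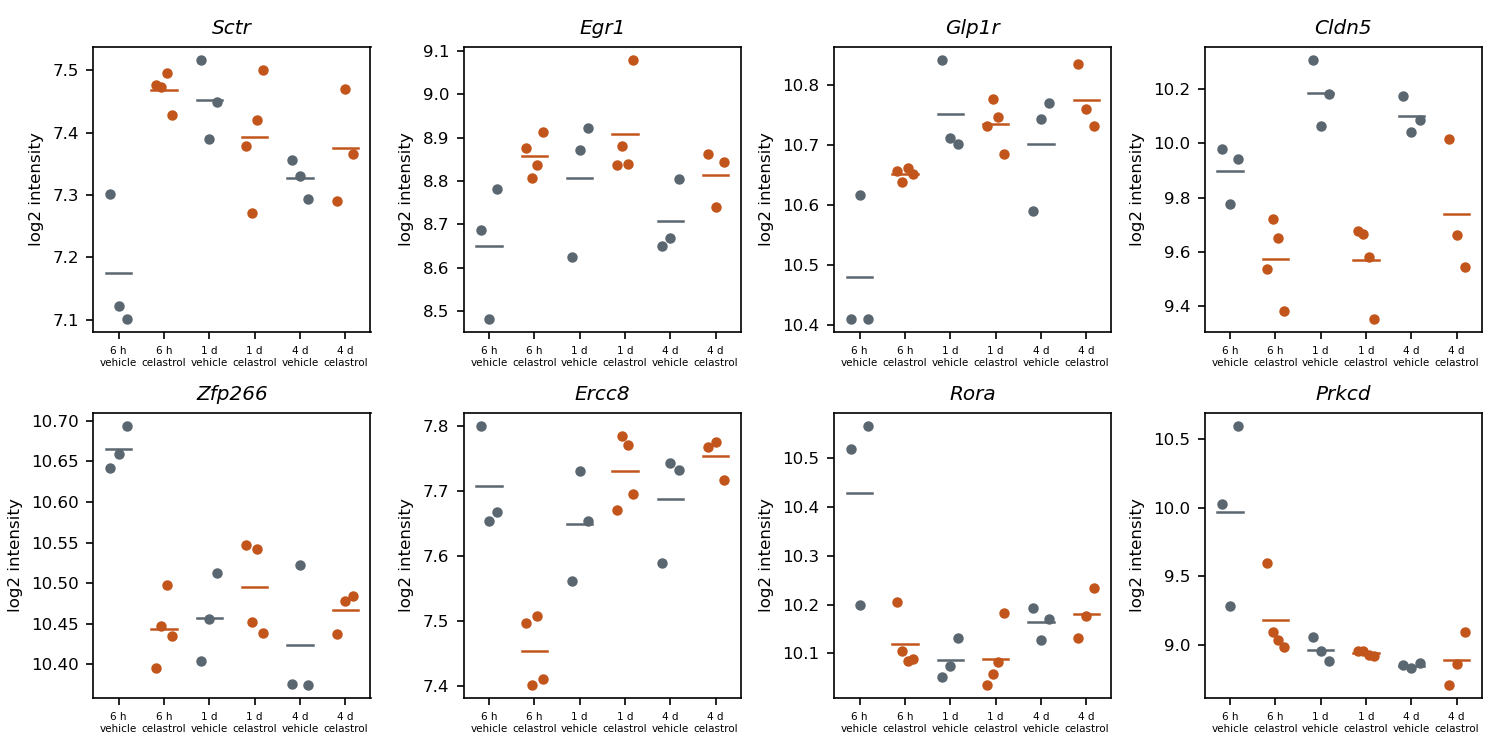
Log2 intensity of 8 genes in every array of the study, vehicle in grey and celastrol in orange at 6 h, 1 day and 4 days, with lines for group means. Sctr, Egr1, Glp1r, Cldn5, Zfp266 and Ercc8 do not overlap between treatments at 6 h, while Rora and Prkcd do, and their high values are those of the 6 h vehicle arrays.

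Heat shock chaperones fold damaged proteins, and are the classic targets of HSF1. None of 19 measured members passed the test, 6 were higher and 13 lower, and the median was -0.032 (all genes, -0.0147). Hspa1a, the inducible Hsp70, differed by 0.00 ± 0.076 with an interval from -0.16 to 0.16. For the other genes whose promoter letters are printed above, the differences were 0.06 for Hspb1, a small heat shock protein, -0.08 for Dnaja1, an Hsp40 co-chaperone, and -0.04 for Hspe1, the mitochondrial Hsp10. All 19 intervals lay within 1.5-fold. The 10 tested chaperones with the core in the promoter had a median of -0.00083, 5 of them higher, and the 6 without it had a median of -0.0387, 0 higher. Without vehicle replicate 3, 13 of the 19 were higher and the median was 0.0261, so the list's direction is not fixed by these arrays.

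Bag3, the co-chaperone of Hsp70 that directs clients to autophagy, stood at the top of that list. It read 8.82, 8.94 and 8.88 with vehicle and 8.97, 9.09, 9.04 and 9.01 with celastrol. The difference of 0.15 ± 0.057 had an unadjusted p of 0.0176 and an adjusted p of 0.63. Its groups did not overlap, and its difference was 0.07 at 1 day and 0.13 at 4 days. At the other end, Hspa4, a nucleotide exchange factor for Hsp70, and Hsp90aa1, the inducible Hsp90, each differed by -0.08.

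The other stress programmes gave no call either. Of 23 genes of the unfolded protein response, which relieves the endoplasmic reticulum, 7 were higher and 16 lower, with a median of -0.0192. Hspa5, the reticulum's Hsp70 (BiP), differed by -0.01 ± 0.061. Trib3, a pseudokinase induced under such stress, read 7.65, 7.83 and 7.50 with vehicle and 7.89, 7.92, 7.80 and 7.86 with celastrol (0.21 ± 0.081, unadjusted p = 0.021). Only its second vehicle value reached into the celastrol range. Edem1, which helps to clear misfolded glycoproteins, differed by -0.14 ± 0.063. Of 18 targets of NRF2, the regulator of antioxidant genes, 7 were higher and 11 lower (median -0.0145). None reached an unadjusted p under 0.05, beside 7.55% of all genes. Hmox1, the heme oxygenase, differed by -0.03 ± 0.066 and Nqo1, a quinone reductase, by -0.12 ± 0.091. Proteasome subunits numbered 30, with 7 higher, 23 lower and a median of -0.0396. Psmc4, an ATPase of the cap, read 10.68, 10.66 and 10.66 with vehicle and 10.53, 10.58, 10.60 and 10.52 with celastrol, -0.11 ± 0.046 with an adjusted p of 0.647. Without vehicle replicate 3, 13 of the 30 subunits were higher.

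Of 22 genes of leptin signalling, 9 were higher and 13 lower, with a median of -0.0114, and all 22 intervals lay within 1.5-fold. Lepr, the leptin receptor, read 7.79, 7.95 and 7.80 with vehicle and 7.84, 7.79, 7.77 and 7.90 with celastrol. Its difference was -0.02 ± 0.064, with an interval from -0.15 to 0.11, and the groups overlapped throughout. Of the pathway's inhibitors, Socs3 differed by 0.09 ± 0.088 and Ptpn1, the phosphatase PTP1B, by -0.01 ± 0.053. The related inhibitors Socs1 and Cish differed by 0.16 ± 0.078 (unadjusted p = 0.0535, adjusted p = 0.658) and 0.08 ± 0.079, and Socs1 had the highest difference of the list. Irs1, an insulin receptor substrate, read 9.33, 9.34 and 9.33 with vehicle and 9.14, 9.20, 9.27 and 9.22 with celastrol, -0.12 ± 0.048 with an adjusted p of 0.631. Jak2, the receptor's kinase, differed by -0.13 ± 0.057 and Sh2b1, an adaptor that enhances it, by 0.13 ± 0.054. Neither passed adjustment.

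No hunger or satiety gene passed the test. Among 15 orexigenic genes 8 were higher and 7 lower, and among 20 satiety genes 6 were higher and 14 lower, with medians of 0.00487 and -0.0139. Npy differed by -0.01 ± 0.093. Pomc differed by 0.09 ± 0.135, and the value of celastrol replicate 4, 9.34, stood above all others. Agrp was not analysed here. Pmch differed by 0.14 ± 0.060 (unadjusted p = 0.0275), and Npy1r, a receptor of NPY, by -0.18 ± 0.071 (unadjusted p = 0.0204). Glp1r, the receptor of the satiety hormone GLP-1, read 10.41, 10.62 and 10.41 with vehicle and 10.66, 10.64, 10.66 and 10.65 with celastrol. The difference was 0.17 ± 0.055 with an unadjusted p of 0.00539 and an adjusted p of 0.582. The celastrol values were tight and all above the vehicle values, of which replicate 2 came nearest, and at 1 day the difference was -0.02. Both group means of 6 h, 10.48 with vehicle and 10.65 with celastrol, were below the vehicle means of 1 day and 4 days, 10.75 and 10.70.

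Genes of the corticosteroid axis, which controls adrenal hormone release, numbered 12, with 6 higher and 6 lower and a median of 0.0202, which was -0.0394 without vehicle replicate 1 and 0.0960 without vehicle replicate 2. Ucn, the peptide urocortin, read 7.50, 7.64 and 7.31 with vehicle and 7.69, 7.71, 7.76 and 7.68 with celastrol, 0.23 ± 0.089. Crhr2, a receptor for urocortins, read 8.61, 8.63 and 8.50 with vehicle and 8.74, 8.66, 8.67 and 8.76 with celastrol, 0.13 ± 0.046. Both were without overlap, and their adjusted p-values were 0.635 and 0.604. Avp, vasopressin, differed by -0.20 ± 0.098, also without overlap, and Crh, the releasing hormone itself, by -0.05 ± 0.161.

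Glucocorticoid targets are genes that the receptor for corticosterone switches on in many tissues. Of 21 measured, 14 were higher and 7 lower at 6 h with a median of 0.0555, whereas the medians were 0.624 at 1 day and 0.311 at 4 days. None passed at 6 h. At an unadjusted p under 0.05 there was 1, higher with celastrol, beside 2.50% of all genes, and 0 were without overlap, beside 6.35% of all genes. The vehicle arrays of 6 h disagreed among themselves: the mean over the list was 10.01, 10.54 and 10.16 in them, 10.19 to 10.40 in the celastrol arrays of 6 h, 9.71 to 9.90 in the later vehicle arrays and up to 10.65 in the later celastrol arrays. All 3 vehicle values of 6 h thus lay above every later vehicle value, and the highest of them above all celastrol values of 6 h. Without vehicle replicate 2, 20 of the 21 were higher, 7 at an unadjusted p under 0.05 (4.17% of all genes in that fit), with a median of 0.153, and without vehicle replicate 1, 9 were higher with a median of -0.0221. The direction of the list at 6 h therefore turns on which vehicle array is left out.

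Sgk1, a glucocorticoid-induced kinase, shows this gene by gene. It read 10.16, 10.73 and 10.45 with vehicle and 10.73, 10.75, 10.67 and 10.55 with celastrol at 6 h, a difference of 0.23 ± 0.125 (unadjusted p = 0.0831, adjusted p = 0.689). The later vehicle groups had means of 9.51 and 9.76, below every array of 6 h, and the later celastrol groups 10.67 and 10.54. Nfkbia, the inhibitor of NF-kB and also a glucocorticoid target, read 9.56, 9.90 and 9.63 with vehicle and 9.86, 9.91, 9.90 and 9.88 with celastrol, 0.19 ± 0.120. Its differences at 1 day and 4 days were 0.93 and 0.68. Errfi1, a brake on the EGF receptor, differed by 0.23 ± 0.104 (unadjusted p = 0.0429), and Fkbp5, the immunophilin that feeds back on the receptor, by 0.20 ± 0.172.

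**Figure D4:**
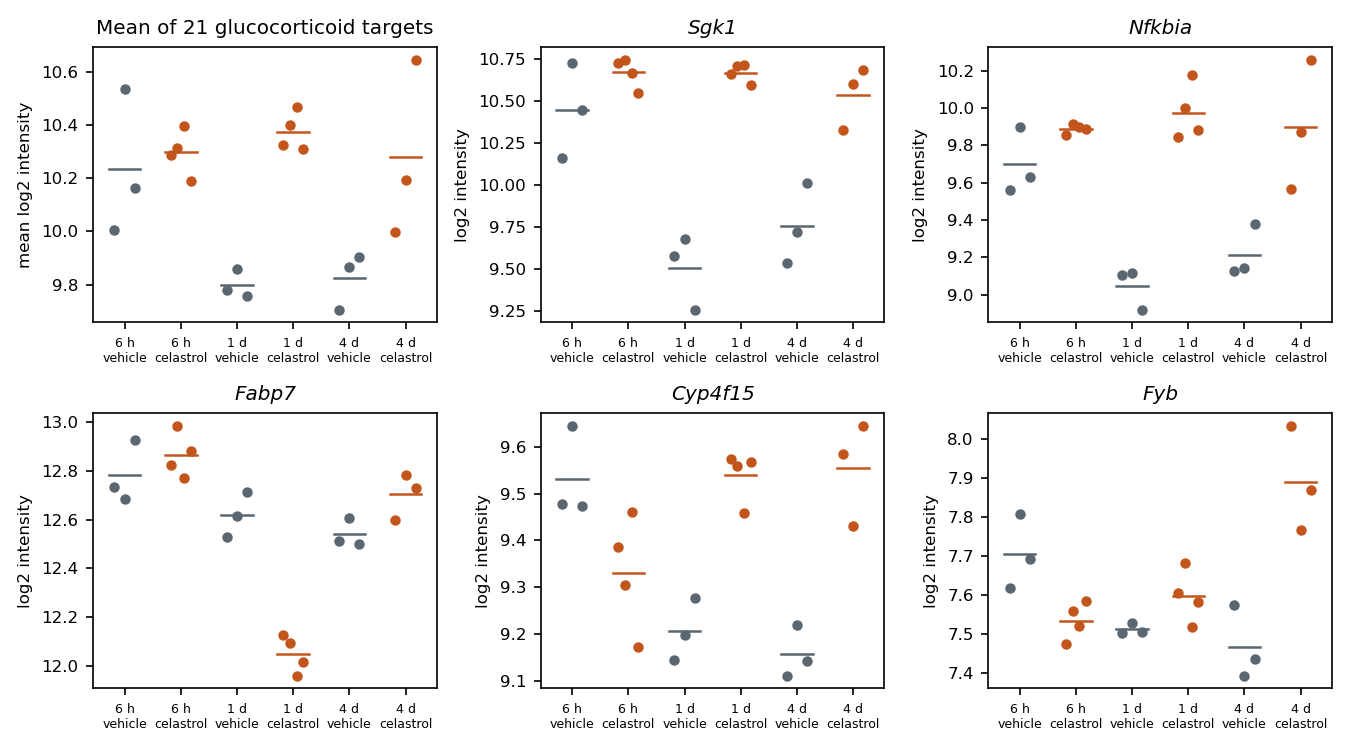
Log2 intensity in every array, vehicle in grey and celastrol in orange, with lines for group means: the mean of 21 glucocorticoid targets, Sgk1, Nfkbia, and the 3 genes whose difference at 6 h departed from that at a later time. In the upper row the vehicle arrays of 6 h lie near the celastrol arrays and above the vehicle arrays of 1 day and 4 days.

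The 60 genes called at 1 day were followed back to 6 h. Of 51 that were higher at 1 day, 39 had a difference above 0 at 6 h, beside 41.7% of all genes, and of 9 that were lower, 5 were below 0, beside 58.3% of all genes. The median at 6 h was 0.0557 for the former and -0.0311 for the latter, while at 1 day, where they were selected, it was 0.459 and -0.296. At 6 h 8 of the 60 had an unadjusted p under 0.05, beside 7.55% of all genes, and 6 of these went the way of 1 day. As a description, the 6 h vehicle mean was above the 1 day vehicle mean for 51 of the 51 (50.9% of all genes), by a median of 0.273 against 0.00196 over all genes. For celastrol the difference between 6 h and 1 day had a median of -0.122 over the 51 and -0.0194 over all genes. The 1 day values, which chose these genes, enter both of these comparisons. Acer2, an alkaline ceramidase, read 8.92, 9.27 and 9.05 with vehicle and 9.20, 9.14, 9.52 and 8.95 with celastrol, 0.12 ± 0.113 beside 0.88 at 1 day. Ch25h, which makes 25-hydroxycholesterol, read 6.68, 7.77 and 6.92 with vehicle and 7.22, 7.39, 7.97 and 7.18 with celastrol. Its difference of 0.32 ± 0.233 had an interval from -0.17 to 0.80, and it was 1.42 at 1 day. In both genes the value of vehicle replicate 2 stood above 3 of the 4 celastrol values.

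Immediate early genes, which neurons switch on within minutes of activity, were measured for 19 members, with 14 higher and 5 lower and a median of 0.0119. Fos differed by 0.01 ± 0.116. Egr1, a transcription factor of this class, read 8.69, 8.48 and 8.78 with vehicle and 8.88, 8.81, 8.84 and 8.91 with celastrol. Its difference was 0.21 ± 0.078 (unadjusted p = 0.0147, adjusted p = 0.628), without overlap. The vehicle values of Egr1 spread more than the celastrol values, and its difference was 0.10 at 1 day and 0.11 at 4 days.

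NF-kB and cytokine genes carry inflammatory signals, and 14 of 22 could be tested, since 6, among them Il6, Il1b and Tnf, were dim and 2, Nfkb1 and Selp, had no probe set with a single symbol. Of the 14, 13 were higher and 1 lower with a median of 0.0978, beside -0.0147 over all genes. Only 1, a higher gene, reached an unadjusted p under 0.05, beside 2.50% of all genes. The list's mean was 8.16 to 8.35 in the vehicle and 8.27 to 8.44 in the celastrol arrays of 6 h, 8.07 to 8.19 in later vehicle and 8.27 to 8.46 in later celastrol arrays. Without vehicle replicate 3, 10 of the 14 were higher and the median was 0.0639. Bcl3, a nuclear partner of NF-kB, read 8.10, 8.34 and 7.87 with vehicle and 8.29, 8.37, 8.51 and 8.37 with celastrol, 0.28 ± 0.107 with an adjusted p of 0.63. Ptgs2, the inducible cyclooxygenase, read 7.90, 8.09 and 8.15 with vehicle and 8.18, 8.23, 8.62 and 8.21 with celastrol, 0.26 ± 0.144. Its groups did not overlap, though the nearest values were 8.15 and 8.18, and it was called at 1 day (1.03).

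Of 15 acute phase and STAT3 genes 8 were higher and 7 lower, with a median of 0.0854. Osmr, the oncostatin M receptor, read 8.08, 9.29 and 8.64 with vehicle and 9.03, 9.11, 9.34 and 8.99 with celastrol, 0.45 ± 0.219 (unadjusted p = 0.0555). Its replicate 2 of vehicle lay among the celastrol values. Cebpb, a transcription factor of acute phase genes, differed by 0.19 ± 0.070 (unadjusted p = 0.0127). Interleukin-1 family genes were 2 higher and 10 lower of 12 (median -0.0295), with Il1rn, the receptor antagonist, at 0.13 ± 0.089, and Il1r1 was not analysed here. Interferon-stimulated genes were 11 higher and 5 lower of 16 (median 0.0186), and Ifih1, a sensor of double-stranded RNA, differed by -0.18 ± 0.081.

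No metabolic or timing gene passed the test. Genes of fasting and of fatty acid oxidation were 7 higher and 8 lower of 15, with Acot2, a mitochondrial thioesterase, at 0.17 ± 0.076. Cholesterol biosynthesis genes were 5 higher and 11 lower of 16 with a median of -0.0547, and Mvk, mevalonate kinase, differed by -0.10 ± 0.046. Oxidative phosphorylation genes were 7 higher and 16 lower of 23, and thyroid hormone genes 3 higher and 7 lower of 10. Insulin and FoxO genes were 8 higher and 15 lower of 23, with Ccng2, a FoxO target cyclin, reading 8.34, 8.36 and 8.27 with vehicle and 8.23, 8.09, 8.22 and 8.09 with celastrol. Clock genes were 6 higher and 13 lower of 19 (median -0.0501). Besides Rora, Hlf, an output factor of the clock, had an unadjusted p under 0.05, at -0.12 ± 0.049. Neuroendocrine peptides were 7 higher and 10 lower of 17. The medians of these and the other lists are small beside the scaling: of 40 lists, 8 changed the sign of their median when the arrays were quantile normalized again, leptin signalling, oxidative phosphorylation and the insulin and FoxO genes among them. Without vehicle replicate 3, 12 lists changed sign. Among pathways these were heat shock chaperones, the unfolded protein response, NRF2 targets, leptin signalling, fatty acid oxidation and oxidative phosphorylation. Among cells and regions they were pan-neuronal, microglia, endothelial, leukocyte, muscle, and cortex and hippocampus markers. With the thalamus covariate 13 lists changed sign, the clock list among them (0.00104).

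**Figure D5:**
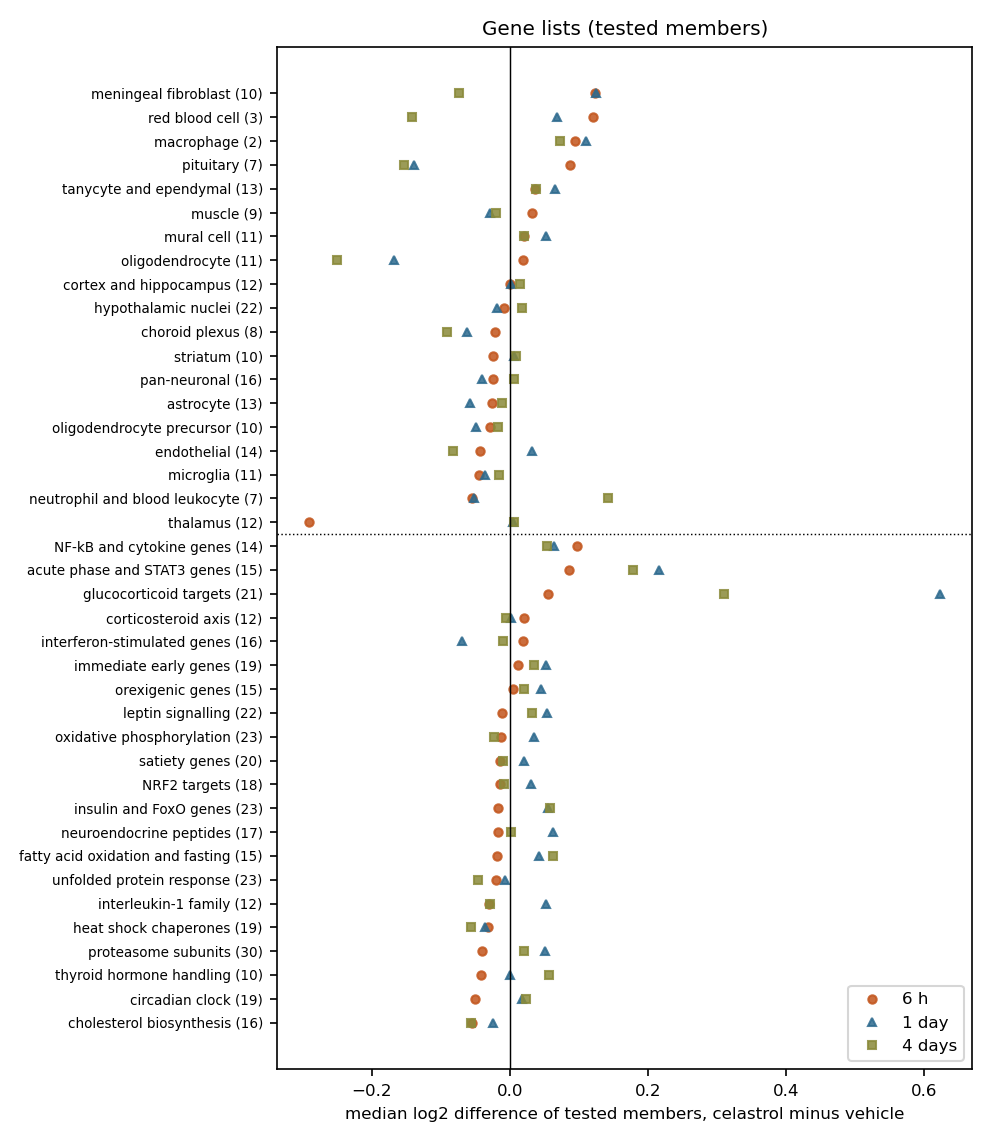
Median log2 difference, celastrol minus vehicle, over the tested members (number in brackets) of each cell or region marker list above the dotted line and each pathway list below it, at 6 h (circles), 1 day (triangles) and 4 days (squares). At 6 h the medians lie within 0.13 of 0 except for thalamus markers at -0.291, while glucocorticoid targets reach 0.624 at 1 day.

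Markers of cell types were described list by list. Pan-neuronal markers were 4 higher and 12 lower of 16 (median -0.0245), astrocyte markers 4 and 9 of 13 (-0.0258), microglia markers 2 and 9 of 11 (-0.045), and oligodendrocyte precursor markers 4 and 6 of 10 (-0.0281). Oligodendrocyte markers were 10 higher and 1 lower of 11, but by a median of only 0.0188, and stood at -0.167 at 1 day and -0.25 at 4 days. Tanycyte and ependymal markers, of the cells lining the third ventricle, were 10 higher and 3 lower of 13 (0.0364). Meningeal fibroblast markers were 9 higher and 1 lower of 10 with a median of 0.124, their mean being at most 9.07 in vehicle and 9.20 in celastrol arrays of 6 h. Blood markers were few above the dim cut, with 7 of 17 leukocyte and 2 of 8 macrophage genes tested. Muscle markers were 8 higher and 1 lower of 9 (0.0325). Striatum markers were 3 higher and 7 lower of 10 (-0.0239), choroid plexus markers 4 and 4 of 8 (-0.0208), and cortex and hippocampus markers 6 and 6 of 12. None of these genes passed adjustment.

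Vessel genes held the marker with the smallest p outside thalamus and striatum. Cldn5, the tight junction protein of brain endothelium, read 9.98, 9.78 and 9.94 with vehicle and 9.54, 9.72, 9.65 and 9.38 with celastrol. The difference was -0.33 ± 0.103, with an unadjusted p of 0.00502 and an adjusted p of 0.582. All celastrol values were below all vehicle values, and Cldn5 was called lower at 1 day, at -0.61, with -0.36 at 4 days. The endothelial list as a whole was 4 higher and 10 lower of 14, with a median of -0.0432. Slco1a4, an organic anion transporter of brain vessels, differed by -0.24 ± 0.102. Mural cell markers, of pericytes and smooth muscle, were 6 higher and 5 lower of 11. Acta2, smooth muscle actin, read 9.24, 9.18 and 9.48 with vehicle and 9.45, 9.57, 9.67 and 9.57 with celastrol, 0.27 ± 0.105. Pdgfrb, the pericyte receptor, read 9.64, 9.64 and 9.57 with vehicle and 9.47, 9.46, 9.55 and 9.51 with celastrol, -0.12 ± 0.050. Of the other smooth muscle markers, Tagln differed by 0.18 ± 0.077 and Myh11 by 0.13 ± 0.057, the sign of Acta2 and not of Pdgfrb.

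Pituitary markers, which show tissue attached below the hypothalamus, were higher for 7 of 7 members with a median of 0.087. Gh, growth hormone, read 8.15, 7.85 and 7.66 with vehicle and 9.39, 8.46, 7.70 and 8.12 with celastrol, 0.53 ± 0.256. Without celastrol replicate 1 it was 0.21. The list's mean was 8.72 to 9.13 in vehicle and 8.95 to 9.46 in celastrol arrays, and was highest in celastrol replicate 4. Without that array the median of the list fell below 0. Pomc belongs to this list as well as to the satiety genes.

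The change of the celastrol effect with time was tested as the difference between times. Of 14129 genes 1 (0.00708%) was called for 6 h against 1 day and 2 (0.0142%) for 6 h against 4 days. Fabp7, a fatty acid binding protein of astrocytes and radial glia, read 12.73, 12.68 and 12.93 with vehicle and 12.82, 12.99, 12.77 and 12.88 with celastrol at 6 h, a difference of 0.08 ± 0.067. At 1 day the difference was -0.57, and the contrast between the times was 0.66 with an adjusted p of 0.0201. The 1 day celastrol mean, 12.05, was the one apart from the other 5 group means, 12.54 to 12.87. Leaving out vehicle replicate 1, vehicle replicate 2, celastrol replicate 2 or celastrol replicate 4 took this contrast above the threshold, with an adjusted p of 0.0605, 0.0628, 0.0562 and 0.0691.

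Cyp4f15, an enzyme that hydroxylates leukotrienes and fatty acids, read 9.48, 9.64 and 9.47 with vehicle and 9.39, 9.30, 9.46 and 9.17 with celastrol at 6 h, -0.20 ± 0.066. At 4 days it differed by 0.40, giving a contrast of -0.60 with an adjusted p of 0.0453, which passed without 1 array only when that array was celastrol replicate 3 (0.0338). Otherwise the adjusted p ranged from 0.0543 to 0.140. Fyb, an adaptor protein of T cells and myeloid cells, read 7.62, 7.81 and 7.69 with vehicle and 7.47, 7.56, 7.52 and 7.58 with celastrol at 6 h, -0.17 ± 0.061. Its difference was 0.42 at 4 days and the contrast -0.59 with an adjusted p of 0.0361, which passed without vehicle replicate 1 (0.0291) and lay between 0.0543 and 0.0930 without any other array of 6 h. For both genes the vehicle mean at 6 h was above the vehicle means of 1 day and 4 days, 9.53 against 9.21 and 9.16 for Cyp4f15 and 7.71 against 7.51 and 7.47 for Fyb. Pax6, a transcription factor of neural progenitors and astrocytes, differed by -0.06 ± 0.068 at 6 h beside -0.39 and -0.53 later, without a called contrast.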

How the data were processed

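Hypothalamus RNA was extracted with Trizol and columns and labelled with biotin, per the labels. The values deposited by the authors are log2 intensities for 23492 probe sets, made with RMA per the submitters' processing notes. Neither its version nor the annotation's genome build was stated in the labels or headers. RMA quantile normalizes arrays, so a shift of all genes cannot be seen. Probe sets with exactly 1 symbol (20228) were kept, 1399 with several and 1865 with none left out, and the probe set with the highest mean was taken for each of 18704 genes. Genes under the 25th percentile of all probe sets (7.04) were called dim, which left 14129. limma 3.58.1 in R 4.3.3 fitted 6 group means over 20 arrays (14 residual degrees of freedom), with Benjamini-Hochberg adjustment over all genes at 0.05; the script was tested on simulated data. Members, gene lists and rules were chosen with earlier results of these data known. Named genes were the 10 with the smallest p in each direction, up to 3 per pathway list and 2 per cell list, 14 fixed genes, the 5 smallest per direction of each time contrast, and 5 called at 1 day. Others were named after their values were seen: the genes past 1.5-fold, those called without 1 array, further list members (Hspa1a, Hspb1, Dnaja1, Hspe1, Fos, Fkbp5, Crh, Socs1, Cish, Tagln, Myh11 and thalamus markers), and untested NF-kB genes. Replicate numbers were not used to pair the arrays in the main fit. The number of arrays limits precision, and no batch or date is in the labels.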

Additional observations from a re-analysis of the deposited data

Results flagged for a closer look

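Among 136 named genes tested for a single array far from the others of its celastrol group at 6 h, 2 were found. Many of these genes were named for a small p at 6 h, so this number was not set against chance. For Ptgs2, celastrol replicate 3 read 8.62 and the other 3 arrays 8.18 to 8.23. For Rora, celastrol replicate 1 read 10.20 and the others 10.08 to 10.10. That array also had the highest thalamus marker mean of its group, 9.02, a mean that includes Rora itself. The effect of celastrol differed between 6 h and 1 day for Fabp7 (0.66), and between 6 h and 4 days for Cyp4f15 (-0.60) and Fyb (-0.59), each by limma's test of the difference itself. None of these calls held under every setting. With the thalamus marker mean as a covariate, limma's adjusted p was 0.0787 for Fabp7, 0.244 for Cyp4f15 and 0.0536 for Fyb.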

How the results depend on the processing

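No gene was called at 6 h under any alternative that kept all 7 arrays, including the thalamus marker mean and the array SD as covariates, both added after seeing the data; 0 to 6 were called when an array of 6 h was left out. Leaving out arrays gave 183 to 589 higher and 298 to 1071 lower genes at an unadjusted p under 0.05, 1285 to 2643 genes without overlap (fewer arrays overlap less), 0 to 3 calls for 6 h against 1 day and 0 to 1 against 4 days, and 33 to 46 of the 1 day genes in the same direction. Lower genes numbered 440 with only the arrays of 6 h, 421 with array weights, 190 with the thalamus covariate and 400 with the array SD. Higher genes numbered 554 with no dim filter, 119 above the 50th percentile, 190 with array weights and 96 with the thalamus covariate. Calls against 1 day were 2 above the 50th percentile, 2 with array weights, 3 with an intensity trend and robust prior, and 0 with the thalamus covariate. Calls against 4 days were 0 after centring, 1 after renewed quantile normalization, 0 with no dim filter, 1 above the 50th percentile, 0 with the thalamus covariate and 0 with the array SD. Above the 50th percentile 26 of the 1 day genes kept their direction, since fewer genes are tested there. Beyond those tied to a named value, the cause was not tested.

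The deviations of same-numbered vehicle and celastrol arrays of 6 h correlated by -0.167, 0.287 and -0.124. These values cannot show whether same-numbered arrays of different times share anything. On the leading component celastrol replicate 1 scored 4.72, 5.32 and 4.67 at 6 h, 1 day and 4 days. Celastrol replicate 2 scored -2.90, 1.61 and -4.36, and vehicle replicate 3 scored 11.4, 9.61 and 0.134. What the numbers stand for is not in the labels and was not tested. With the replicate block 0 genes were called at 6 h, 0 against 1 day and 0 against 4 days, and Npy stood at 0.0173.

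These small differences changed sign. Centring gave Hspa5 0.000602, Npy 0.00117 and Ptpn1 0.0013, and renewed quantile normalization Hspa5 0.00213, Lyve1 -0.0064, Npy 0.0235 and Ptpn1 0.0146. The mean of a gene's probe sets gave Socs2 0.00195. Array weights gave Hspa5 0.0134, Lyve1 -0.0381, Npy 0.000454, Ptpn1 0.00925 and Socs3 -0.00286. The thalamus covariate gave Calcr 0.00372, Cck 0.0211, Crym -0.0303, Hlf 0.00104, Hspa5 0.0533, Lyve1 -0.13, Nefm 0.0188, Neu4 -0.0037, Npy 0.00277, Pomc -0.0198, Ptpn1 0.0279, Slc17a7 0.0227, Socs3 -0.0932 and Thrb 0.0346. The array SD gave Lepr 0.0146, Lyve1 -0.0274 and Tnnt3 -0.0178. Without 1 array the ranges were -0.00403 to 0.0764 for Cldn11, -0.000861 to 0.18 for Grp, -0.0516 to 0.0016 for Hmox1, -0.0588 to 0.0307 for Hspa5, -0.0464 to 0.0309 for Lepr, -0.0724 to 0.189 for Lyve1, -0.147 to 0.0129 for Myd88, -0.0735 to 0.0772 for Npy, -0.0432 to 0.158 for Pomc and -0.0422 to 0.0242 for Ptpn1.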

Other observations

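Genes whose symbol marks a zinc finger protein (Zfp, Zscan, Zkscan or Zbtb) were counted after 3 of them were seen among the 10 lower genes with the smallest p, so the count is a description. Of 357 tested at 6 h, 246 (68.9%) were lower, beside 58.3% of all genes, and the median was -0.0378. At an unadjusted p under 0.05, 39 (10.9%) were lower, beside 5.05% of all genes, and 9 (2.52%) higher, beside 2.50%, and none passed adjustment. The groups did not overlap for 34 (9.52%), beside 6.35% of all genes. At 1 day 40.3% of the 357 were lower, beside 46.2% of all genes, with a median of 0.016, beside 0.00628.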
